A study of Drosophila melanogaster with 2 samples.

Results

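The glial marker and glutamate handling genes Gs2, Eaat1, Eaat2, moody, Indy, repo, nrv2, wrapper and alrm were selected by symbol, 9 of 13945 protein-coding genes on the 6 major chromosome arms. Their Capicua-GFP binding was read from chromatin immunoprecipitation and sequencing (ChIP-seq) of whole Drosophila melanogaster adults of mixed sex and unknown age, from a transgenic line with GFP fused to the C-terminus of Capicua (cic), an HMG-box repressor. Both libraries, biological replicates 1 and 3, came from this line and were precipitated with an antibody against GFP after sonication to 200 to 800 bp. There was 1 group, so no comparison between conditions could be made, and no library of another genotype was analysed here. The files used here hold peaks and not reads, so library depth is unknown, and 2 samples of 1 group allow no test.

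Glutamate released at synapses is taken up by glia through EAAT transporters, turned into glutamine by glutamine synthetase and returned to neurons in that form. Glia of the fly also build the blood-brain barrier, wrap axons and neuronal cell bodies, and send astrocyte-like processes into the neuropil. The homeodomain factor Repo is present in nearly all glia outside the midline. Some of the selected genes are also used outside the nervous system, and the material was whole flies with no expression measured. The label of glial marker could therefore not be checked, and a peak could not be assigned to a cell type.

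A peak's summit was counted for a gene if it lay in the gene body or within 5000 bp of any of its transcript starts. The peaks were the 7152 that met the authors' threshold of irreproducible discovery rate, called the reproducible list here. A summit's strength is the authors' peak score, which has no fixed range. Scores in that list ran from 115.8 to 3067, with a median of 179.6, and the strongest 10% began at a score of 410.

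Of the 9 genes, 6 had a reproducible summit (66.7%), and 51.2% of all protein-coding genes did by the same rule (95% exact Clopper-Pearson interval 50.4 to 52.1). They were Gs2, Eaat1, moody, Indy, nrv2 and wrapper, while Eaat2, repo and alrm had none. With a limit of 1000 bp from a start and no gene body, Gs2, Eaat1, moody and Indy remained (4 of 9, against 30.5% of all protein-coding genes). When a summit counted only for the gene with the nearest start, 5 of 9 genes had one, against 26.4% of all, and wrapper dropped out. The 6 genes held 21 summits, of which 17 were nearest to one of the gene's own starts and 4 were nearer to a neighbour's. Window widths were 10001 to 22636 bp, with a median of 12366 bp for the 9 genes and 10001 bp for all genes. The windows held 1.78 summits per 10 kb for the 9 genes and 0.857 for all protein-coding genes, a description that was not tested.

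**Figure D1:**
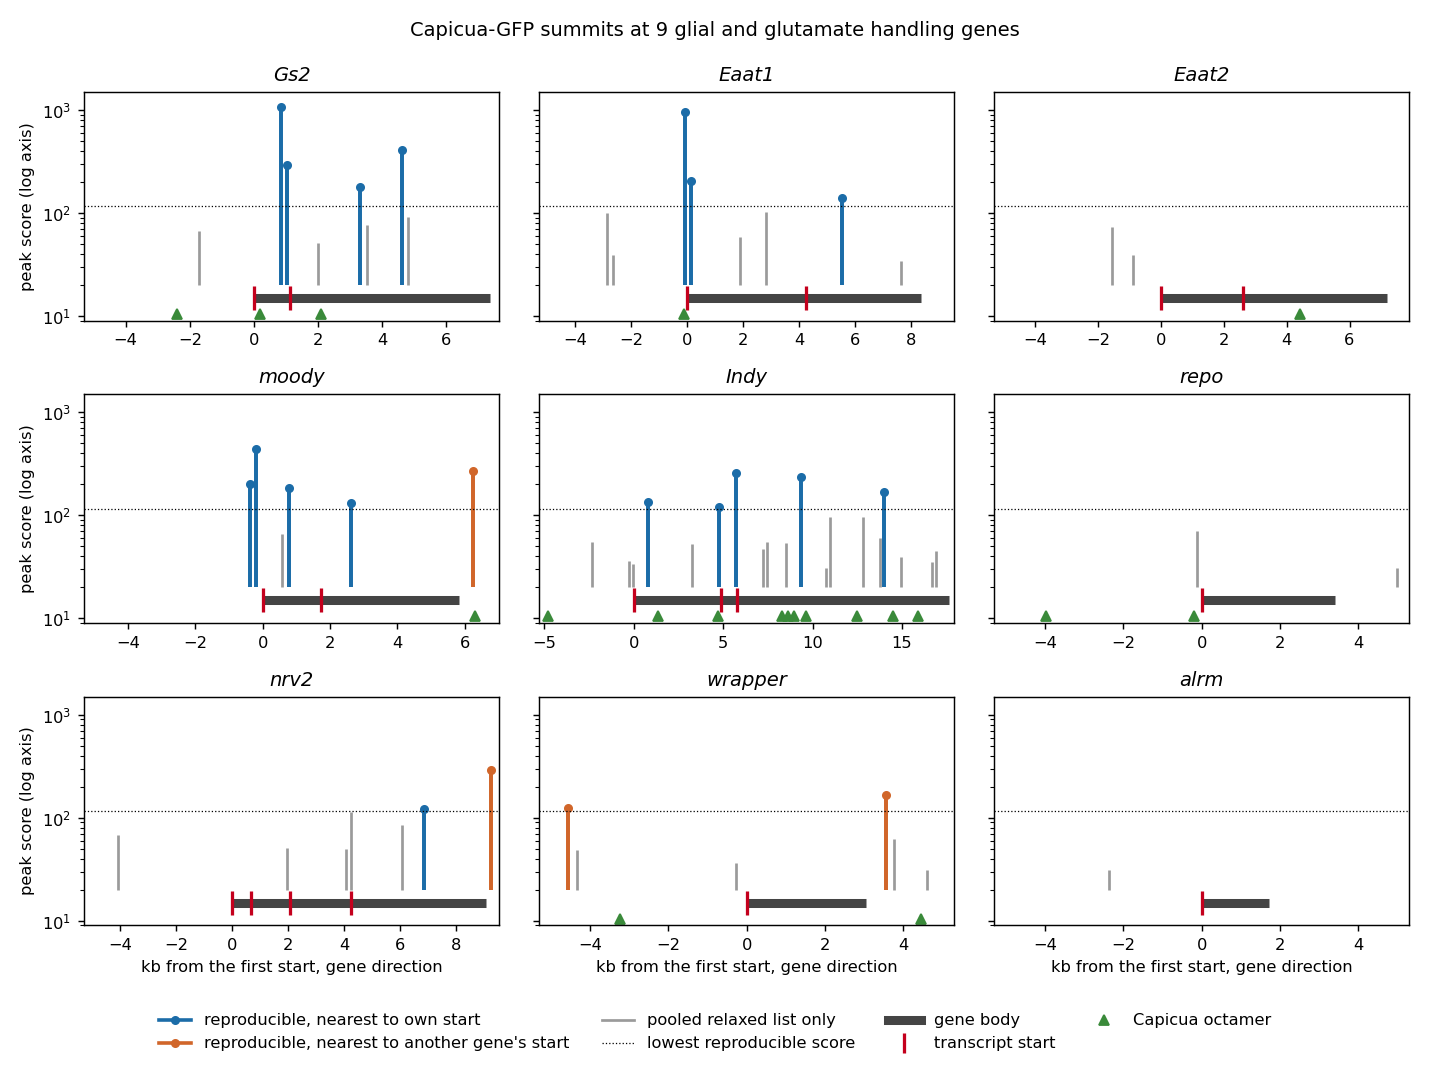
Peak score (log axis) of each summit against its distance in kb from the gene's first transcript start, in the direction of transcription, for each of the 9 genes; blue and orange stems are reproducible summits nearest to the gene's own start or to another gene's, grey stems are in the pooled relaxed list alone, the dotted line is the lowest reproducible score of 115.8, and green triangles are Capicua octamers. The tallest stems stand at starts of Gs2 and Eaat1, and Eaat2, repo and alrm have grey stems only.

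The highest scores stood at the pair of genes that clear and convert glutamate. Gs2 encodes glutamine synthetase, which makes glutamine from glutamate and ammonia in glia. It lies on the plus strand of chromosome X, from 11422832 to 11430197 (dm6), with starts 1125 bp apart. Its strongest summit scored 1053.6, rank 58 of 7152, and lay 292 bp upstream of the downstream start, within an intron of the longer transcripts. Replicate 1 scored 643.7 there and replicate 3 scored 409.3 (526.5 ± 165.7, SD, n = 2). A further summit in the same interval, 88 bp upstream of that start, scored 294.1, with 202.6 in replicate 1 and 87.3 in replicate 3. Replicate 1 was the higher at both, and both replicates had the stronger of the pair at the same place within 2 bp.

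Inside Gs2, an intronic summit 3483 bp downstream of the nearest start scored 407.4, with 200.1 in replicate 1 and 208.1 in replicate 3. Another at 2200 bp scored 178.7, with 83.6 in replicate 1 and 103.5 in replicate 3. At these intronic summits the ratios of replicate 1 to replicate 3, 0.962 and 0.808, were closer to 1 than at the promoter, where they were 1.57 and 2.32. Of all protein-coding genes, 100 had a stronger summit than Gs2 in their windows. The sequences around the promoter summit (chrX:11423590-11423740) and the 407.4 summit (chrX:11427365-11427515), RefSeq Release 6 assembly, plus strand, are shown. These summits scored highest at Gs2, and the promoter summit scored highest at any of the 9 genes. Capitals mark the E-box CAGCTG, found within 100 bp of 13.1% of all 7152 summits, and the GAGA element GAGAGAG, found at 9.27%; neither sequence holds a Capicua octamer (TGAATGAA or TGAATGGA).
Gs2 promoter summit: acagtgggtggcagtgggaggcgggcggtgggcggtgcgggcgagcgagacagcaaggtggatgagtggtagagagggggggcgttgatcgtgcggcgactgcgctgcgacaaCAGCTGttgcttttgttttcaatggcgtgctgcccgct
Gs2 intronic summit: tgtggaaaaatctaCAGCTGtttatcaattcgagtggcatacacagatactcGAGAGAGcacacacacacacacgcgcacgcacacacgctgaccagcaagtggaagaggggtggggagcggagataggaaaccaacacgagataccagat

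Eaat1 encodes the high-affinity glutamate transporter of fly glia. It lies on the plus strand of chromosome 2L, from 9333567 to 9341925, with starts 4239 bp apart. A summit 77 bp upstream of its first start scored 955.2, rank 80 of 7152, with 548.5 in replicate 1 and 420.4 in replicate 3 (484.4 ± 90.6, SD, n = 2). It was in the strongest 1.12% of the list, and 141 protein-coding genes had a stronger summit. A neighbour in the same interval, in the 5′ UTR at 134 bp, scored 203.4 in the reproducible list. There the replicates were far apart: replicate 1 scored 132.4 at rank 1727 of its own list, and replicate 3 scored 21.6 at rank 23628. That ratio of 6.12 was the highest of the 7122 reproducible summits with a peak in both replicates. The matched replicate 3 summit lay 37 bp away and shared its interval with the summit of 420.4. The score of 203.4 was 1.32 times the sum of the replicates' scores, against a median of 0.988 over all summits. An intronic summit 1295 bp downstream of the second start scored 138.4, with 67.0 in replicate 1 and 70.1 in replicate 3.

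The promoter summit of Eaat1 had the only Capicua octamer in the window of that gene. It lay on the plus strand at chr2L:9333438-9333445, 48 bp from the summit. TGAATGAA was within 100 bp of 3.87% of all summits, against 1.82% of windows 1000 bp to either side. The sequence from chr2L:9333415-9333565, which ends before the annotated 5′ UTR, is shown with the octamer in capitals.
Eaat1 promoter summit: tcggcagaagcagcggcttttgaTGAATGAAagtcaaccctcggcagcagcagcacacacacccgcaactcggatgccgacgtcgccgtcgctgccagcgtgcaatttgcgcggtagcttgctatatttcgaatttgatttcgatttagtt

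Eaat2 encodes the other EAAT family member, known for aspartate and taurine uptake. It had no reproducible summit in its window, and the nearest one lay 75336 bp from its starts. The authors also deposited relaxed lists, from the pooled replicates and from each replicate, which by their name hold background as well as peaks. The pooled one had 2 entries at Eaat2. The higher scored 72.3, 1564 bp upstream of the first start, with 32.1 in replicate 1 and 40.1 in replicate 3. The lower scored 38.6, and neither replicate had a peak that overlapped it. In each replicate the promoter score of Eaat1 was above the highest score at Eaat2 by more than the replicates differed at either gene.

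The barrier genes carried weaker summits. moody encodes a G-protein-coupled receptor of the subperineurial glia, which close the blood-brain barrier. It lies on the minus strand of chromosome X, from 2044292 to 2050120, and had 5 reproducible summits, 4.26 per 10 kb of window. The strongest scored 440.1, 185 bp upstream of the first start, with 178.2 in replicate 1 and 264.0 in replicate 3 (221.1 ± 60.7, SD, n = 2). The second in the same interval, 387 bp upstream, scored 199.7, with 90.6 in replicate 1 and 122.7 in replicate 3. Replicate 3 was the higher at both. A summit in a 5′ UTR scored 185.6, with 98.6 in replicate 1 and 90.6 in replicate 3, and an intronic one scored 132.4, with 68.9 in each replicate.

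The remaining summit counted for moody lay past its 3′ end, 4529 bp from its nearest start and 48 bp from the start of CG4325. It scored 269.3, with 108.6 in replicate 1 and 165.4 in replicate 3. It held the only octamer of the moody window, 33 bp from the summit, and a GATA-type sequence, CTGATAAG, 1 bp from it. The GATA-type sequence was at 4.78% of all summits. The sequences of the promoter summit (chrX:2050230-2050380) and of the summit at CG4325 (chrX:2043819-2043941) are given on the minus strand, in the direction of moody. Capitals mark the GATA-type sequence and the octamer, which reads TGAATGAA on the other strand; the promoter summit held none of the 8 motifs searched.
moody promoter summit: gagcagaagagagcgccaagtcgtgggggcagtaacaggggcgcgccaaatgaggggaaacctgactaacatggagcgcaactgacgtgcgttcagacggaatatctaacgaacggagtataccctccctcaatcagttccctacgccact
moody downstream summit: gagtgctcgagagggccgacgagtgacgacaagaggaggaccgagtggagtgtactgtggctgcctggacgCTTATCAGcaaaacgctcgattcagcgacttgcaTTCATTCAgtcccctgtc

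nrv2 encodes a beta subunit of the sodium-potassium ATPase, a part of septate junctions whose regulatory DNA drives common glial driver lines. It lies on the minus strand of chromosome 2L, from 6789770 to 6798862, with 4 starts. The higher of its reproducible summits scored 288.6, with 117.5 in replicate 1 and 178.0 in replicate 3, and lay just beyond its 3′ end and 2756 bp from the nearest start, that of nrv1. It counted for nrv2 by a narrow margin, at 4982 bp from a start. The summit nearest to an own start of nrv2 scored 120.9, in an intron, with 83.2 in replicate 1 and 54.6 in replicate 3. A pooled entry 4 bp from a start of nrv2 scored 112.8, at rank 7427 and so just below the threshold, with 61.2 in replicate 1 and 44.1 in replicate 3. The intronic summit, on the minus strand at chr2L:6791910-6792060, is shown because CAATTA, a homeodomain sequence reported for Repo, stood there in 2 copies, in capitals. The same 6 letters were at 4 of the 21 summits (19%), at 16% of all summits and in 16.9% of the flanking windows. The 138.4 summit of Eaat1 had 2 copies as well, and the others were at Gs2 and in the wrapper window.
nrv2 intronic summit: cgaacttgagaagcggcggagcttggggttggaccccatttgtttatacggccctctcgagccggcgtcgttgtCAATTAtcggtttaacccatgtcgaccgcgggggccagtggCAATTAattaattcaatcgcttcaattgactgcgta

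Indy encodes a plasma membrane transporter of citrate and dicarboxylates, best known from the fat body, gut and oenocytes and for its effect on lifespan. It is the longest of the 9 genes, on the minus strand of chromosome 3L from 18828632 to 18846267, and has 3 starts. Its 5 reproducible summits scored 119.3 to 257.1 and were all inside the gene. The strongest lay 20 bp upstream of the innermost start, with 168.1 in replicate 1 and 92.5 in replicate 3 (130.3 ± 53.5, SD, n = 2). An intronic summit 3620 bp from that start scored 236.3, with 150.7 in replicate 1 and 84.8 in replicate 3. Replicate 1 was the higher at 4 of the 5 summits. The reproducible summit nearest to the outermost start lay 796 bp downstream of it, in an intron. It scored 134.5, with 45.8 in replicate 1 and 88.8 in replicate 3. Closer to that start, the pooled relaxed entries 31 and 267 bp upstream scored 33.9 and 36.1.

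The summit of 119.3, 99 bp upstream of the middle start of Indy, had a TGAATGGA octamer 26 bp away, the shortest distance between an octamer and a reproducible summit at any of the 9 genes. Replicate 1 scored 69.6 and replicate 3 scored 50.3 there, so the octamer stood at the weakest of the 21 summits. TGAATGGA was at 1.45% of all summits and 1.05% of flanks. The sequences of the strongest Indy summit (chr3L:18840517-18840611) and of the summit with the octamer (chr3L:18841435-18841585) are given on the minus strand. Capitals mark the octamer and an E-box, CACGTG, which was at 4.1% of all summits.
Indy strongest summit: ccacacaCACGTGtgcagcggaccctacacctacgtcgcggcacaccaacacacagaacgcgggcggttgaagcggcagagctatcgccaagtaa
Indy octamer summit: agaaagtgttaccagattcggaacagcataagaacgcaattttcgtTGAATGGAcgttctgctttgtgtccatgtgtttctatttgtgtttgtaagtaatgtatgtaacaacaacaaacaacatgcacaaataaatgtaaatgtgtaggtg

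The remaining glial markers had no reproducible summit of their own. At repo, the homeodomain factor of glial differentiation, the highest pooled entry scored 70.7, 118 bp upstream of the start. Replicate 1 scored 32.9 and replicate 3 scored 38.2 there (35.5 ± 3.69, SD, n = 2). Its −log10 q-value was 4.51, the ceiling at which every reproducible peak stood, while its score rank was 12787 of 30000. Weaker pooled entries stood at that ceiling too, such as one of 58.5 at Eaat1, at rank 15486, so the value does not set repo apart. A TGAATGGA octamer lay 81 bp from the repo entry. A pooled entry of 51.4 at Gs2 likewise had a TGAATGAA octamer 97 bp away, and the share over all relaxed entries is not given here.

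At alrm, which encodes a leucine-rich repeat protein used as a marker of astrocyte-like glia, the single pooled entry scored 31.2, 2376 bp upstream, near the lowest score of that list, 30.7. Replicate 3 had a peak of 18.5 over it and replicate 1 had none. A relaxed entry in the window is common: all 9 genes had one, and so did 83.6% of all protein-coding genes. The relaxed scores at repo and alrm are given as values only.

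wrapper, an immunoglobulin-family protein of midline and cortex glia, is on chromosome 2R from 22379637 to 22382675. Its window held 2 reproducible summits, both at starts of neighbours. The one 49 bp from the start of CG13506 scored 167.0, with 86.6 in replicate 1 and 82.3 in replicate 3. The one 14 bp from the start of Rtf1 scored 124.8, with 81.9 in replicate 1 and 47.7 in replicate 3. At the start of wrapper itself the nearest pooled entry, 274 bp upstream, scored 36.6, with 19.6 in replicate 1 and no overlapping peak in replicate 3.

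The limit of 5000 bp decided whether wrapper had a summit at all, 4 of the 21 summits and the strongest score of nrv2. The summits just inside it were those of nrv2 at 4982 bp, wrapper at 4561 bp and moody at 4529 bp. Just outside were summits of 130.7 at 5862 bp from repo, 211.1 at 6136 bp from moody and 159.5 at 6773 bp from nrv2. A summit of 675.2 lay 7440 bp from wrapper and 3943 bp from CG13506.

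All 21 summits overlapped a peak in the relaxed list of each replicate, as did 99.6% of the 7152. Of the 21, 15 matched a peak among the 7152 strongest of both replicates (71.4%), and 72.7% of all reproducible summits did. The number was 20 of 21 for replicate 1 and 16 of 21 for replicate 3, against 85.1% and 86.4% of all summits in replicates 1 and 3. Replicate 1 scored higher at 12 of the 21 (57.1%) and at 43.1% of all matched summits. The median ratio of replicate 1 to replicate 3 was 1.09 for the 21 summits and 0.94 for all, where the 5th to 95th percentiles were 0.477 and 1.83. The ratio was beyond that range at 3 of the 21 summits: Eaat1 at 6.12, Gs2 at 2.32 (88 bp from its start) and Indy at 1.89 (8238 bp from its nearest start). At moody, 3 of 5 summits had ratios between 0.656 and 0.738, inside that range, and the others had 1 and 1.09. The lowest ratio of the 21 was 0.516, at Indy, and a summit of nrv2 had 0.66. These sets of summits were not tested against each other.

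**Figure D2:**
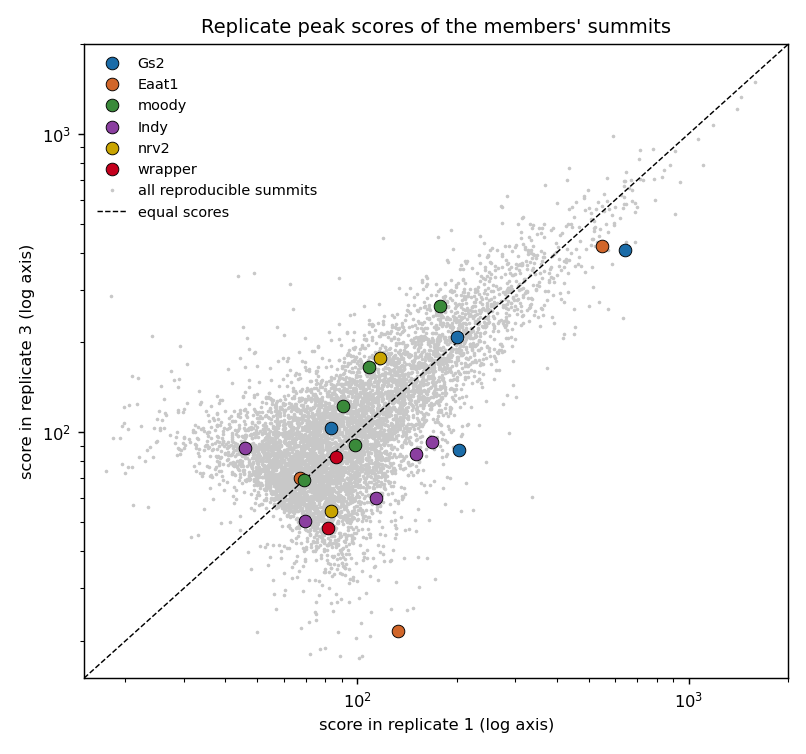
Score in replicate 3 against score in replicate 1 (both log axes) for the 21 summits of the 6 genes (coloured points) and for all reproducible summits with a peak in both replicates (grey); the dashed line marks equal scores. The strongest Gs2 and Eaat1 summits lie below the line, higher in replicate 1, the strongest moody summit lies above it, and the lowest point is the Eaat1 summit with 21.6 in replicate 3.

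By strongest summit, the genes with one ordered as Gs2 (1053.6), Eaat1 (955.2), moody (440.1), nrv2 (288.6), Indy (257.1) and wrapper (167.0). Gs2 and Eaat1 did not differ beyond the spread between replicates: Gs2 scored higher in replicate 1 (643.7, and 548.5 for Eaat1) and lower in replicate 3 (409.3, and 420.4 for Eaat1). Nor did nrv2 and Indy at these summits, whose replicates gave opposite orders. The nrv2 summit was the one past its 3′ end, nearer to the start of nrv1. Among summits nearest to an own start, Indy (257.1) was higher than nrv2 (120.9) in each replicate. The values were 168.1 against 83.2 in replicate 1 and 92.5 against 54.6 in replicate 3. The gap between Eaat1 and moody was present in each replicate. Across all protein-coding genes, 1025 had a stronger summit than moody, 2246 than nrv2, 2736 than Indy and 4989 than wrapper. The median strongest score was 364.4 over the 6 genes and 214.3 over all genes with a summit.

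**Figure D3:**
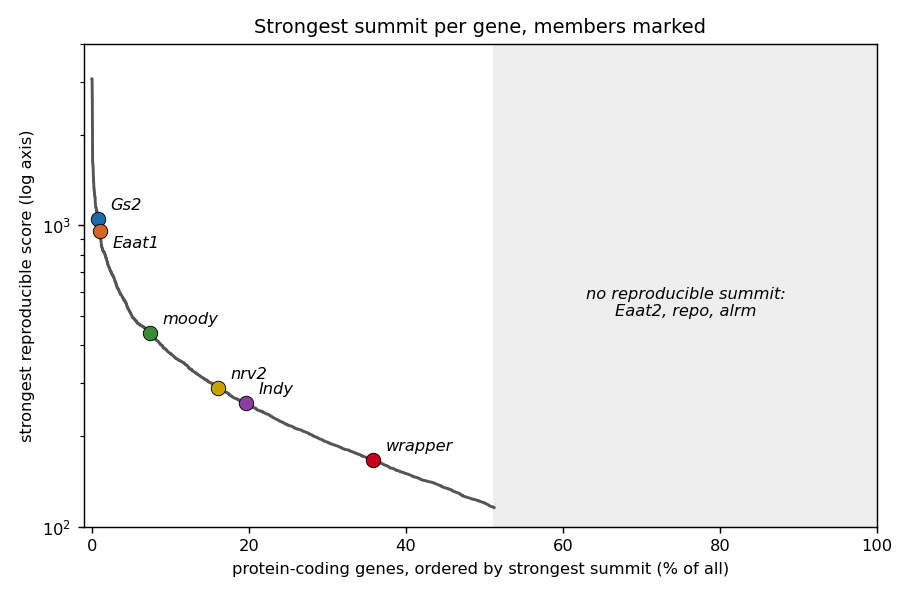
Score of the strongest reproducible summit (log axis) of every protein-coding gene, ordered from strongest to weakest and given as a percentage of all 13945 genes on the x axis; the shaded part is the genes with none, among them Eaat2, repo and alrm. Gs2 and Eaat1 sit at the far left, with 100 and 141 genes above them.

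Of the 21 summits, 12 were intronic in the counted gene, 2 were in a 5′ UTR, 4 were upstream and 3 downstream, positions that the counting rule itself limits. A protein-coding start of any gene was within 1000 bp of 14 of the 21 (66.7%) and of 64.7% of all summits, and the rule bears on that share too. The rule used neither base composition nor motifs. The median GC content within 100 bp was 52.2% at the 21 summits and 43.3% at all. An octamer of either form was within 100 bp of 3 of the 21 (14.3%) and of 5.23% of all summits: at Eaat1, at the CG4325 side of moody and at Indy. Within 250 bp the count was still 3 of 21, while the share of all summits was 10%. The 9 windows held 20 octamers, 1.7 per 10 kb against 1.36 over the 6 arms, and 3 of the 20 lay within 100 bp of a reproducible summit, a zone that covers 3.51% of the windows. Indy had 10 of the 20. The DRE, TATCGATA, was at the Rtf1 summit of the wrapper window, and at 2.71% of all summits.

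Other genes of the same processes were taken from fixed lists and read by the same rule, beside the 51.2% of all protein-coding genes with a summit. Of 7 enzymes of glutamate metabolism, 4 had a summit: Gdh, glutamate dehydrogenase, with 836.8 (315.2 in replicate 1, 521.4 in replicate 3), Gs1, the mitochondrial glutamine synthetase, with 491.4, and the aspartate aminotransferases Got1 with 381.2 and Got2 with 310.6. The strongest summit in the Gs1 window was nearer to a neighbour's start, and the strongest nearest to Gs1 scored 229.1. Of 13 genes for glutamate receptors, vesicle loading and glutamate export, 2 had a summit. These were gb (genderblind), a glial transporter subunit that sets extracellular glutamate, with 596.4, and Nmdar1, a receptor subunit, with 316.9, although the summit nearest to a start of Nmdar1 scored 118.3. VGlut, mGluR and all 5 listed GluRII subunits had none.

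Among 6 regulators of glial fate, 4 had a summit: pnt, an ETS factor, with 973.2, loco, a regulator of G-protein signalling, with 811.2, ttk, a repressor of neuronal fate in glia, with 221.6, and gcm2 with 205.0. The gcm2 summit was nearer to a neighbour's start, and gcm, the factor that starts glial development, had none. Of 9 genes of particular glial types, 2 had a summit, the trehalose transporter gene Tret1-1 with 477.2 and the engulfment receptor gene drpr with 174.2. The drpr summit was nearer to a neighbour's start, and the one nearest to a start of drpr scored 154.9. Gat, e, zyd, htl, axo, Mdr65 and Cyp4g15 had none.

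Of 16 septate junction genes, 10 had a summit. The highest scores were in the windows of pck (1150.6) and Cont (526.8), where that summit was nearer to the start of another gene, and at nrv1 (487.2) and Atpalpha (354.6). No summit was nearest to a start of pck, and the one nearest to a start of Cont scored 122.9. All 6 G-protein partners of moody had one, led by loco (811.2), Pka-C1 (265.8), Galphao (237.0) and Gbeta13F (216.0). Of 7 paralogs of the 9 genes, Gs1, nrv1 and nrv3 (140.4) had a summit, and Tre1, Indy-2, CG7309 and klg had none. The nrv1 summit of 487.2 lay 6972 bp from nrv2. Of 12 neuronal genes, 3 had a summit: Syx1A (783.1), elav (279.9) and para (168.4), with those of Syx1A and para nearer to another gene's start. The strongest summit nearest to a start of Syx1A scored 493.6, and para had none nearest to its own. Windows differ in width between lists, with a median of 35297 bp for the neuronal genes and 10804 bp for the glutamate enzymes, and the lists were not tested against each other.

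**Figure D4:**
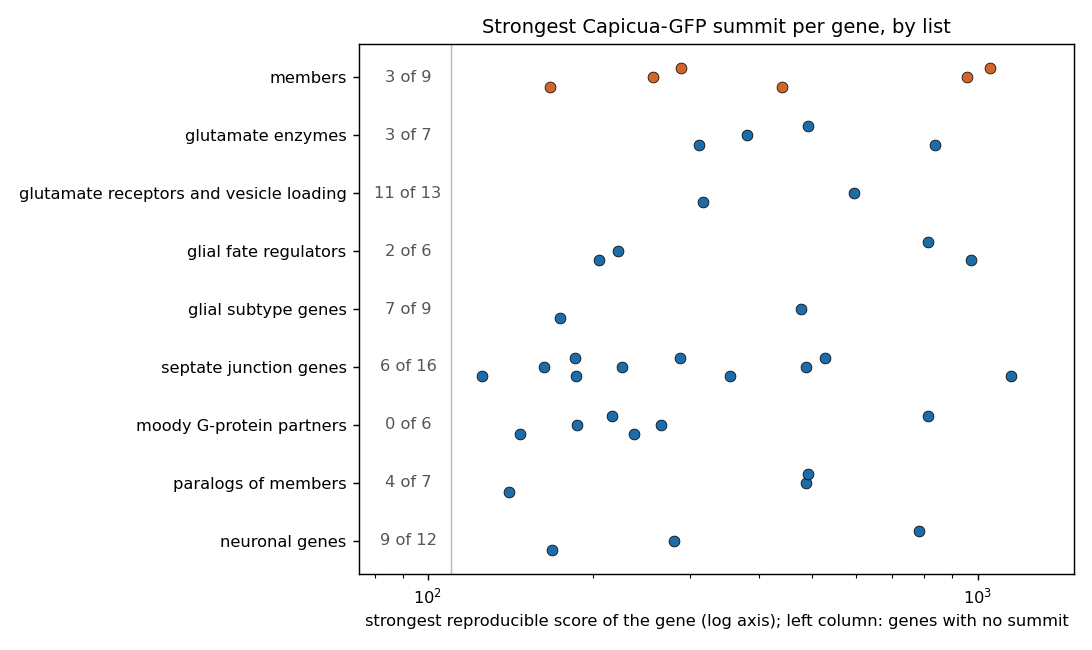
Score of the strongest reproducible summit (log axis) of each gene in the 9 selected genes (orange) and in 8 lists of related genes (blue), offset up and down for visibility; the left column counts the genes with no summit of those measured. The 9 genes and the glutamate enzymes each have 3 genes without a summit, and the glutamate receptors and vesicle loading genes have 11 of 13 without.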

How the data were processed

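The authors deposited peak lists on dm6 and dm3. Per the text list deposited with the files, each came from the replicates' alignments and a control alignment: a relaxed list of 30000 peaks for each replicate, 1 for the pool, and a list of 7152 that met an irreproducible discovery rate (IDR) threshold. No aligner or peak caller is named in the labels or files used. The deposited peak score (column 7) has no stated scaling; pooled scores were close to the sum of the replicates' scores (median ratio 0.988). The deposited −log10 q-value (column 9) has a ceiling of 4.51 in the reproducible list, while in replicate 3 the strongest peaks at the 9 genes stood at 4.26. The dm3 lists were not used here.

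Summits (start plus column 10, 1-based) were assigned to genes of Ensembl release 115, with sequence from the RefSeq Release 6 assembly. A replicate's score at a summit is that of its overlapping peak (1 bp or more) with the nearest summit. Octamers and 6 other motifs were sought on both strands within 100 bp. All 76 list names matched the annotation. The search, assignment and matching were tested on simulated data. Shares have exact 95% intervals, which cover counting error only and treat genes as independent. The 9 genes and the lists were chosen with earlier results of these data known, so no set was tested. Named are the 9 genes, the owners of nearer starts, all paralogs and up to 4 genes a list by strongest summit; further genes without a summit were named after their values were seen. The labels call the libraries biological replicates but give no details of rearing, so their spread may be partly technical. Software was matplotlib 3.10.9, scipy 1.17.1, numpy 2.4.6 and pandas 2.3.3 under Python 3.11.15.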

Additional observations from a re-analysis of the deposited data

How the results depend on the processing

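The number of the 9 genes with a summit was 4 to 6 over all settings, and Gs2, Eaat1, moody and Indy had one in each. The 21 summits became 17 with the gene body or 1000 bp, 14 with the gene body only, 11 within 1000 bp of a start only, 12 in the stronger 50% of the list and 18 with 1 summit per merged interval. The share of all protein-coding genes with a summit, 51.2%, was 32.8% with the gene body or 1000 bp, 30.5% within 1000 bp of a start only, 18.6% with the gene body only, 32.7% in the stronger 50% of the list and 26.4% by nearest start. Narrower windows, fewer peaks or 1 gene per summit leave fewer genes by construction. Without either replicate, taking the other's 7152 strongest peaks, all 6 genes kept a summit, the summits numbered 16 to 23 and the share was 51.2% to 51.8%. Without replicate 3 the strongest nrv2 summit was the intronic one, at 83.2 in replicate 1, since the replicate 1 peak at the 288.6 summit lay past the 5000 bp limit. The strongest nrv2 summit scored 120.9 by nearest start, against 288.6. In the gene body only, the strongest scored 203.4 at Eaat1 and 185.6 at moody. With a reciprocal overlap of 50%, 18 of 21 summits had a peak in replicate 1 (79.4% of all summits) and 19 in replicate 3 (81% of all). An octamer was found at 3 of the 21 summits within 250 bp (10% of all summits) and at 4 in whole intervals (9.51% of all), against 5.23% of all within 100 bp. The summit added in whole intervals was that of Eaat1 in the 5′ UTR, which shares its interval, and so the same octamer, with the Eaat1 promoter summit. Over all genes of any type the share was 39.2%, and with 2 further octamer forms added the octamer count stayed 3 (8.1% of all summits); both were added after seeing the data. No paired analysis was possible because there is 1 group. Without read counts, depth limits could not be set.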
